A study of Mus musculus with 4 samples.

Results

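The genes described here belong to the unfolded protein response and the amino acid stress response. The 40 genes were named from the known pathways, with earlier results of these data known. Their transcripts were read with Illumina bead arrays in a line of immortalized mouse fibroblasts, with 4 arrays in 4 groups and 1 array per group. The cells had been given miR-141, miR-200c, a control miRNA or the transfection reagent alone (transfectant only) for 48 h. Hydrogen peroxide at 400 µM was present in every culture over the final 2 h, so no array shows cells without peroxide. The transfection field of the transfectant only sample reads none, while its description names the reagent. Neither the clone and mouse strain of the line nor the transfected arm of each miRNA precursor is given in the sources used here. For each gene the probe with the highest mean signal was taken. Of the 40 genes, 39 had a named probe, 28 were detected in at least 1 array and 27 in all 4, against 17711, 7734 and 6485 genes on the whole array. A probe counted as detected at a detection p-value under 0.01, which sets it against the background of its own array.

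When misfolded proteins collect in the endoplasmic reticulum (ER), the membrane sensors IRE1 (Ern1), PERK (Eif2ak3) and ATF6 are activated. IRE1 splices the Xbp1 transcript, ATF6 is cleaved to a transcription factor, and both raise ER chaperones and the machinery of ER-associated degradation (ERAD). PERK phosphorylates the initiation factor eIF2, as do kinases that sense amino acid shortage, heme shortage or double-stranded RNA. Bulk translation then slows while ATF4 is made, and ATF4 induces amino acid enzymes, transporters, feedback inhibitors and Ddit3 (CHOP). This common branch is called the integrated stress response. In fibroblasts, which secrete much collagen, the ER folding machinery also serves normal matrix production.

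The mature sequences of the 2 miRNAs are shown because the arrays compare them with each other, with the seed (bases 2 to 8) in capitals. RefSeq on GRCm38.p6 places both precursors on chromosome 6. The seeds of the 3p arms differ by 1 base, C4U from miR-141 to miR-200c, counted from the 5′ end of the mature miRNA.
mmu-miR-141-3p (chr6:124717917-124717938, minus strand): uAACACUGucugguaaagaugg
mmu-miR-200c-3p (chr6:124718324-124718346, minus strand): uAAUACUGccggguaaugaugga

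Promoter windows from RefSeq on GRCm38.p6 (250 bases before to 50 after the annotated start) are shown for 4 genes whose signals differed most among the arrays or between the miRNAs. Capitals mark matches to a C/EBP-ATF response element core (CARE, TGATGNAA, present here as its reverse complement TTGCATCA), or in Ppp1r15a to an ATF/CRE site (TGACGTCA). For Vldlr, which has more than 1 window, the one with a match is shown.
Chac1 (chr2:119350992-119351291, plus strand): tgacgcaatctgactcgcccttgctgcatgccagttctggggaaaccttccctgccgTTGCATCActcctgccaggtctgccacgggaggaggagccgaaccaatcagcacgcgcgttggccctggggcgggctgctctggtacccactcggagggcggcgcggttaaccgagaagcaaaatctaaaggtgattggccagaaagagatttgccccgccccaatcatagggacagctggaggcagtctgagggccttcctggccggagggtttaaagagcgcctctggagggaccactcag
Vldlr (chr19:27216770-27217069, plus strand): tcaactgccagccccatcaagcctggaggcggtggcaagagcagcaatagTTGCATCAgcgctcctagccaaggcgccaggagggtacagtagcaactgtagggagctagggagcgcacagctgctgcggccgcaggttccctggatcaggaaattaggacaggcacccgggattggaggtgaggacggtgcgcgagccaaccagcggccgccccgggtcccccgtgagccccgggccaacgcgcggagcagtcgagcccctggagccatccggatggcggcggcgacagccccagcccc
Nupr1 (chr7:126625421-126625720, minus strand): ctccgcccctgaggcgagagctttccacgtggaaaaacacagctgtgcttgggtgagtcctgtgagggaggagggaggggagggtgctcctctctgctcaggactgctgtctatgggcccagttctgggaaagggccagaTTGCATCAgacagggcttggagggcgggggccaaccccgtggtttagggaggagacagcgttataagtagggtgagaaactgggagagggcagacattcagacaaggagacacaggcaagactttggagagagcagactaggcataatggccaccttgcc
Ppp1r15a (chr7:45526219-45526518, minus strand): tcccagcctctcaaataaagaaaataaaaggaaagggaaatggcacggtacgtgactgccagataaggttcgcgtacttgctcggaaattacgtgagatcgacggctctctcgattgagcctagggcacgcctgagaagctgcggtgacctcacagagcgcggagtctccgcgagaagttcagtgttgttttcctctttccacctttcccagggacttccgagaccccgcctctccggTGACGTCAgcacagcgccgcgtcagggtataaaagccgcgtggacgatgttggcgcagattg

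Motifs were searched on both strands, and 0 matches in the windows of these genes overlapped another. Windows were found for 37 of the 40 genes. The CARE core was present in 6 of these 37 (16.2%), namely Asns, Chac1, Herpud1, Nupr1, Trib3 and Vldlr, and in 4.51% of all 27025 genes with a window. The ATF/CRE site was present in Ppp1r15a alone among them and in 2.03% of all genes. The ER stress response element, CCAAT and CCACG with 9 bases between them, bound by ATF6 with NF-Y, was present in 8 of 37 (21.6%) and in 0.137% of all genes. The 8 were Calr, Canx, Creld2, Dnajc3, Hsp90b1, Hspa5, Pdia6 and Syvn1. A shorter form, ATTGG and CCACG with 1 base between them, was present in Dnajb11 and Herpud1, and in 0.0444% of all genes. The element TGACGTGG was present in 0 of 37 and in 0.714% of all genes. The Xbp1 window held none of the 5 motifs, which says only that these letters are not in that window. The member genes were named from the pathways that these elements serve, so their motif shares beside those of all genes are no test.

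With 1 array per group no test between groups can be made and no p-value is given. A call of higher or lower required a difference of 1.5-fold (0.585 on the log2 scale) in the same direction from control miRNA and from transfectant only. The gene also had to be detected in at least 1 of the 3 arrays compared. Levels below are normalized log2 signals of a single probe, and levels of different probes are not compared. Of the 28 detected genes, the rule called 0 higher and 4 lower under miR-141 (14.3%), where it called 5.25% of 7641 genes in either direction, 2.24% higher and 3.01% lower. With miR-200c, 1 was higher and 3 lower (14.3%), where the rule called 8.18% of 7686 genes in either direction, 3.83% higher and 4.36% lower. Xbp1, Chac1 and Vldlr were lower with both miRNAs, Atf5 was lower with miR-141 and Ppp1r15a was higher with miR-200c. The miRNAs were set against the same control arrays, so their calls are not independent. Because the member genes were chosen with earlier results of these data known, their share beside that of all genes is no test of the pathways. All 8 calls ended when the arrays were scaled to the median of all probes, a level set by background, which moved the median of all detected genes by 0.38 and -0.35 for miR-141 and by 0.37 and -0.36 for miR-200c. Relative to that shift Chac1, Vldlr and Xbp1 passed again with both miRNAs and Ppp1r15a with miR-200c. Removing the shift centres all genes much as quantile normalization does, so this is not an independent check of the calls.

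**Figure D1:**
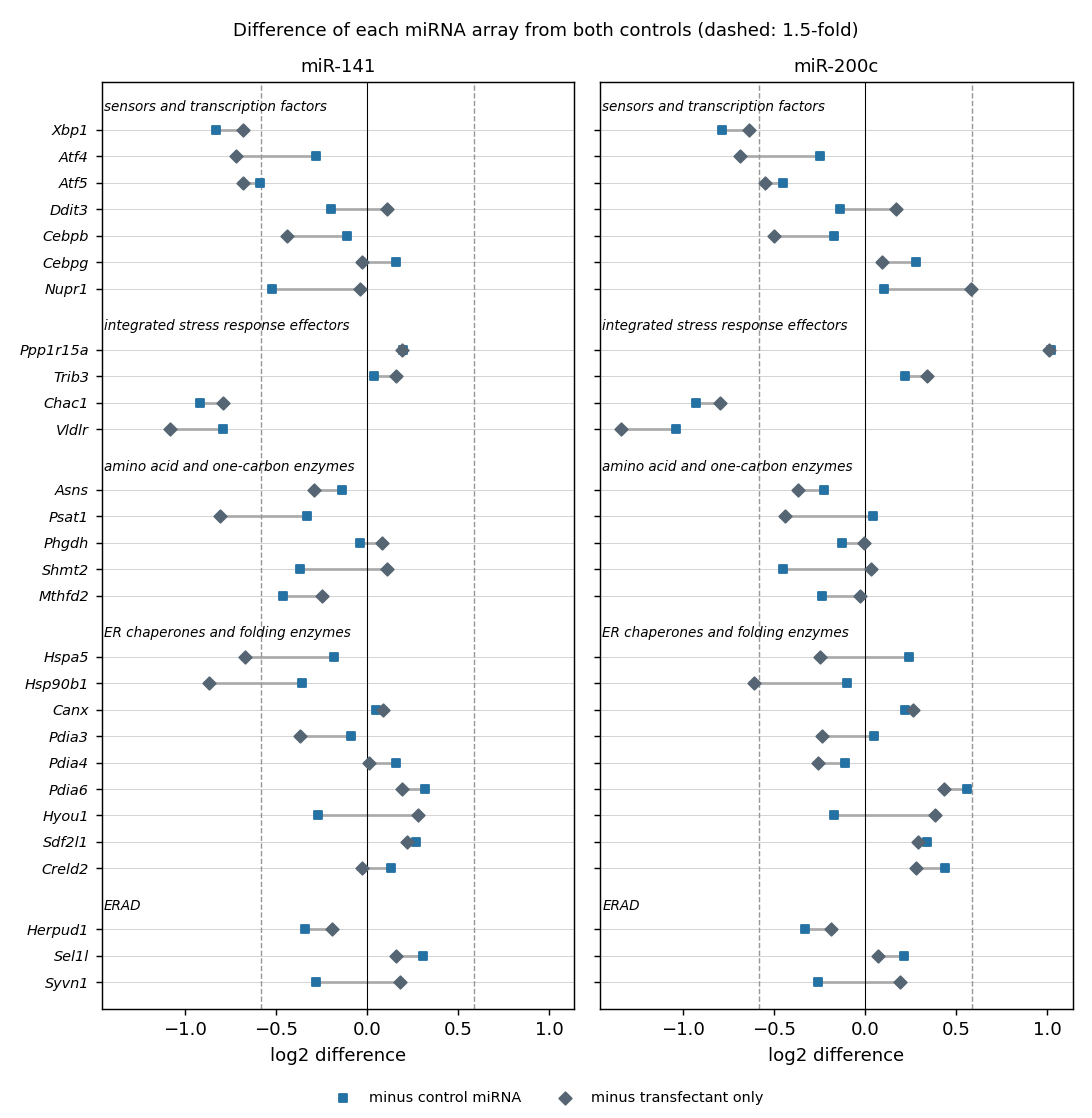
Log2 difference of the miR-141 array (left) and the miR-200c array (right) from control miRNA (squares) and from transfectant only (diamonds) for the 28 detected genes, with dashed lines at 1.5-fold (0.585). Xbp1, Chac1 and Vldlr lie left of the dashed line with both symbols in both panels, and Ppp1r15a lies right of it with miR-200c.

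The differences between the controls give the size of differences without either miRNA. Between control miRNA and transfectant only 0 of 28 genes passed 1.5-fold, where 7.7% of 7511 genes did (3.14% higher and 4.55% lower in control miRNA). The standard deviation of this log2 difference was 0.30 over the 27 genes detected in all 4 arrays and 0.30 over all 6485 such genes. Its extremes among the 28 were -0.51 for Hsp90b1, the ER form of HSP90, and 0.55 for Hyou1, an ER chaperone of the HSP110 type. The mean raw signal was 198 intensity units with miR-141 and 190 with miR-200c, against 151 in control miRNA and 246 in transfectant only, so the controls had the lowest and the highest mean. Between 6987 and 7156 genes were detected per array. Zeb1 and Zeb2, known targets of the miR-200 family, served as a check of the transfections. Zeb1 was at 7.64 under miR-141 and 6.50 under miR-200c, against 8.78 in control miRNA and 9.05 in transfectant only. Zeb2 was at 5.63 and 5.51 with these miRNAs, against 6.91 in control miRNA and 6.95 in transfectant only.

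Of 10 fibroblast markers, Col1a1, Vim, Fn1, Pdgfrb and Dcn were detected, while Col1a2, Col3a1, Pdgfra, Thy1 and Fap were below detection in every array. Of these 10, 4 were detected with miR-141 and 4 with miR-200c, against 5 in each control. Their summed level was 13.85 with miR-141 and 13.58 with miR-200c on the log2 scale, against 14.02 in control miRNA and 14.01 in transfectant only. Of 7 epithelial markers, 4 were detected with miR-141, 4 with miR-200c and 1 in each control. The epithelial sum on the log2 scale was 8.63 with miR-141 and 9.88 with miR-200c, against 7.78 in control miRNA and 7.63 in transfectant only. Cdh1, Epcam and Krt18 were below detection throughout. Leukocyte and endothelial markers had 1 detected gene each, Cd14 and Kdr, and Ptprc and Pecam1 were below detection. The part of these marker shifts in the results for the stress genes was not tested. In bulk RNA, fewer cells expressing a gene and less RNA per cell cannot be told apart.

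The sensors were largely out of reach. Ern1, Eif2ak3 and Atf6 were below detection in all 4 arrays with every probe, which bounds the signal of these probes and does not show that the genes were silent. Xbp1, the transcription factor made after IRE1 splicing, had log2 signals of 9.08 with miR-141 and 9.12 with miR-200c, against 9.91 in control miRNA and 9.76 in transfectant only. Both miRNA arrays were thus below both controls, and the miRNA arrays lay closer to each other than the controls did. Xbp1 was 1.78-fold lower than control miRNA and 1.61-fold lower than transfectant only with miR-141. With miR-200c it was 1.73-fold and 1.56-fold lower. The signal covers the transcript as a whole and was not split into spliced and unspliced forms. Among the genes considered, Xbp1 ranked 165 of 7641 from the lowest end with miR-141, by the smaller of its differences from the controls, and 282 of 7686 with miR-200c.

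ATF5, a relative of ATF4 that is also made when eIF2 is phosphorylated, had Atf5 transcript signals of 6.77 with miR-141 and 6.91 with miR-200c, against 7.36 in control miRNA and 7.46 in transfectant only. The controls did not overlap the miRNA arrays. The log2 differences were -0.59 and -0.68 with miR-141, at the edge of the rule. They were -0.45 and -0.55 with miR-200c, short of it. The call with miR-141 was lost without background correction (-0.49 for the smaller difference), with an offset of 50 (-0.47) and with the authors' processed values (-0.48).

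Atf4, which encodes the central factor of the integrated stress response, was at 9.39 under miR-141 and 9.42 under miR-200c, against 9.67 in control miRNA and 10.11 in transfectant only. It was below both controls with each miRNA, but the difference passed 1.5-fold only against transfectant only, at -0.72 and -0.69. A dimmer Atf4 probe detected in all 4 arrays ran the other way, at 5.97 under miR-141 and 5.76 under miR-200c, against 5.70 in control miRNA and 5.53 in transfectant only. ATF4 is controlled mainly at translation, which transcript signals do not read. Ddit3, whose product CHOP promotes cell death under lasting stress, was at 7.86 under miR-141 and 7.93 under miR-200c, against 8.07 in control miRNA and 7.76 in transfectant only. Both miRNA arrays lay between the controls.

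Cebpb and Cebpg encode C/EBP partners of ATF4. Cebpb was at 10.39 under miR-141 and 10.33 under miR-200c, against 10.50 in control miRNA and 10.83 in transfectant only, with differences of -0.11 to -0.50. Cebpg was at 10.57 and 10.70 with these miRNAs, against 10.42 in control miRNA and 10.61 in transfectant only, and transfectant only lay between the miRNA arrays. Nupr1, a small stress-induced chromatin protein gene with a CARE core in the window printed above, was at 10.62 under miR-141 and 11.23 under miR-200c, against 11.13 in control miRNA and 10.65 in transfectant only. The miR-141 array sat beside transfectant only and the miR-200c array beside control miRNA. Nupr1 was therefore called against both controls with neither miRNA.

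**Figure D2:**
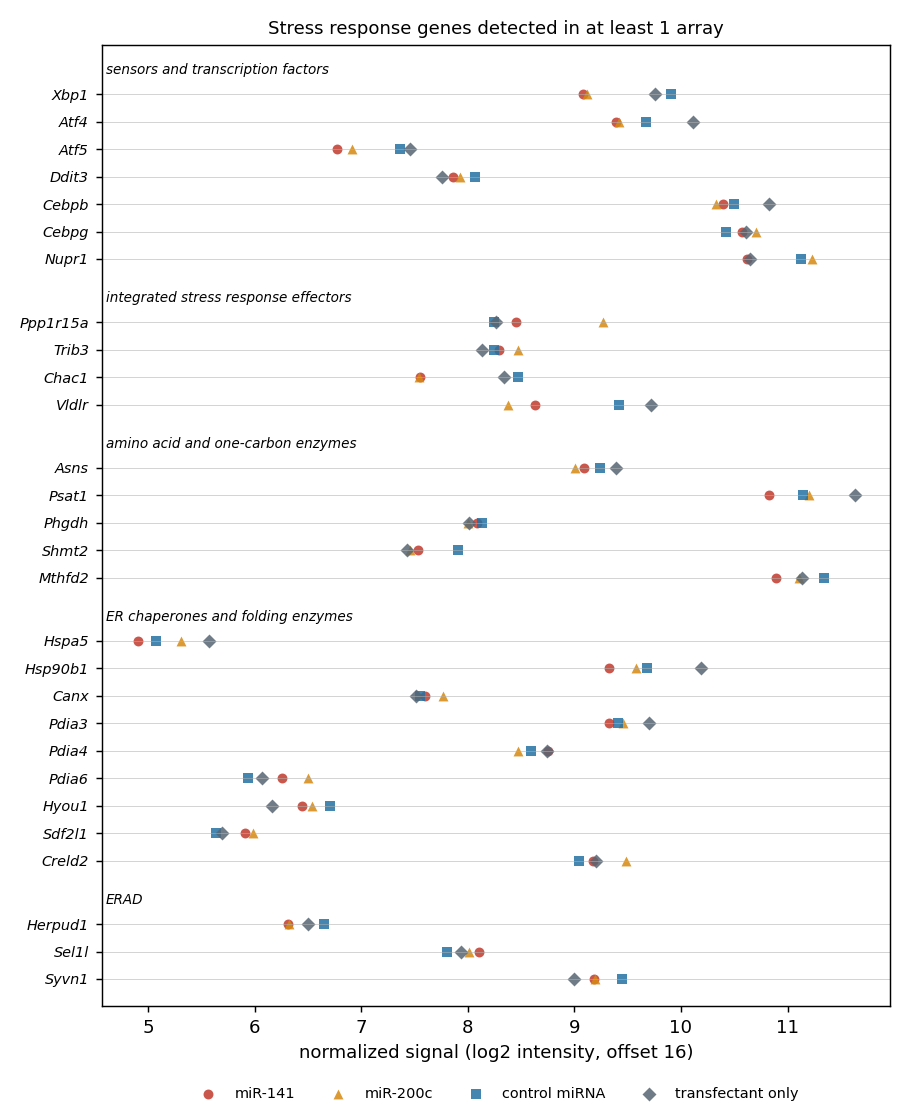
Normalized log2 signal of the 28 detected genes in the 4 arrays, grouped by role, with 1 symbol per array and no replicates. Levels compare arrays within a row and not one gene with another. For Xbp1, Atf5, Chac1 and Vldlr both miRNA arrays lie left of both controls, and for Ppp1r15a the miR-200c array lies apart at 9.27.

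The effectors of the integrated stress response held the largest differences in both directions. Chac1, an enzyme that breaks down glutathione and is induced through ATF4, was at 7.55 under miR-141 and 7.54 under miR-200c, against 8.47 in control miRNA and 8.34 in transfectant only. The miRNA arrays agree to 0.01, and both were below both controls. Chac1 was 1.89-fold lower than control miRNA and 1.73-fold lower than transfectant only with miR-141. It was 1.90-fold and 1.74-fold lower with miR-200c. Its rank from the lowest end was 110 of 7641 with miR-141 and 174 of 7686 with miR-200c.

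Vldlr, the very low density lipoprotein receptor gene and a known ATF4 target, was at 8.63 under miR-141 and 8.38 under miR-200c, against 9.42 in control miRNA and 9.72 in transfectant only. It was 1.73-fold and 2.12-fold lower with miR-141 than in these controls, and 2.06-fold and 2.53-fold lower with miR-200c. This was the lowest-ranked member with miR-200c, at 93 of 7686. A second detected Vldlr probe had signals of 8.19 with miR-141 and 7.83 with miR-200c, against 8.65 in control miRNA and 8.53 in transfectant only. It passed the rule with miR-200c, at differences of -0.82 and -0.70, but not with miR-141, at -0.46 and -0.34. The other 4 Vldlr probes were below detection. Chac1 and Vldlr each hold a CARE core in the windows printed above, at positions -193 to -186 and -200 to -193 from the start. The other genes with a CARE core (Asns, Herpud1, Nupr1 and Trib3) passed the rule with neither miRNA.

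Ppp1r15a encodes GADD34, which directs a phosphatase to eIF2 and lets translation restart. Its signal was 8.45 with miR-141 and 9.27 with miR-200c, against 8.25 in control miRNA and 8.26 in transfectant only. The miR-200c array stood alone, while the controls differed by 0.01. With miR-200c Ppp1r15a was 2.03-fold higher than control miRNA and 2.01-fold higher than transfectant only, rank 90 of 7686 from the highest end. With miR-141 the log2 differences were 0.20 and 0.19. Trib3, a pseudokinase that restrains ATF4 and CHOP, was at 8.29 under miR-141 and 8.47 under miR-200c, against 8.25 in control miRNA and 8.13 in transfectant only. Both miRNA arrays were above both controls, by 0.04 to 0.34, short of the rule. Ddit4 and Sesn2, inhibitors of mTORC1 signalling, were below detection in all 4 arrays.

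The amino acid and one-carbon enzymes had 5 of 6 genes detected and 0 called with either miRNA. Psat1, of the serine pathway, was at 10.83 under miR-141 and 11.20 under miR-200c, against 11.15 in control miRNA and 11.63 in transfectant only. The miR-141 array was lowest, by 0.33 against control miRNA and 0.81 against transfectant only, while the miR-200c array lay between the controls. A second Psat1 probe had differences of -0.36 and -0.40 with miR-141 and of -0.19 and -0.23 with miR-200c. Asns, the asparagine synthetase gene, was at 9.09 under miR-141 and 9.01 under miR-200c, against 9.24 in control miRNA and 9.39 in transfectant only. Mthfd2, a mitochondrial folate enzyme gene, was at 10.89 and 11.11 with these miRNAs, against 11.34 in control miRNA and 11.14 in transfectant only. Both miRNA arrays were below both controls for Asns and Mthfd2, by 0.46 at most.

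Phgdh, the first enzyme of serine synthesis, was at 8.09 under miR-141 and 8.0 under miR-200c, against 8.13 in control miRNA and 8.01 in transfectant only. All 4 arrays lay within 0.13 of one another for this gene. Shmt2, which moves a carbon unit from serine to folate in mitochondria, was at 7.53 under miR-141 and 7.46 under miR-200c, against 7.91 in control miRNA and 7.43 in transfectant only. Here control miRNA stood apart and the other arrays were close. Psph, the last enzyme of serine synthesis, was below detection in every array. Against control miRNA the median difference over the 5 detected enzymes was -0.33 for miR-141 and -0.23 for miR-200c. Against transfectant only it was -0.25 and -0.03. With scaling to the median of all probes the values against control miRNA were 0.08 and 0.23. Under that scaling the median of all detected genes was higher, at 0.38 and 0.37.

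ER chaperones and folding enzymes are the classical output of ATF6 and XBP1. Of 14 genes, 13 had a probe, 9 were detected and 0 were called with either miRNA. Against control miRNA their median difference was 0.05 for miR-141 and 0.22 for miR-200c. Without Hspa5, which was below detection in both arrays of that comparison, the value for miR-200c was 0.13, and with undetected signals at the lowest detected one it was 0.05. Set against transfectant only the medians were 0.01 and 0.26, where the median of all 7734 detected genes lay between -0.00 and 0.02. Dnajb11 had no named probe here. Calr, Dnajb9, Dnajc3 and Manf were below detection in all 4 arrays. Hspa5, which encodes the chaperone BiP, was detected in transfectant only, at 5.57, and was below detection with miR-141 (4.90), with miR-200c (5.31) and in control miRNA (5.07). BiP and calreticulin are abundant proteins in most cells, and whether these probes read their main transcripts was not tested.

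Hsp90b1, which folds secreted and membrane proteins, was at 9.32 under miR-141 and 9.58 under miR-200c, against 9.68 in control miRNA and 10.19 in transfectant only. Transfectant only stood apart at the top, and the differences from control miRNA were -0.36 and -0.10. Pdia3, a disulfide isomerase that works with calnexin, was at 9.32 and 9.46 with these miRNAs, against 9.41 in control miRNA and 9.70 in transfectant only. Again transfectant only was highest. Pdia4, another disulfide isomerase, was at 8.75 under miR-141 and 8.47 under miR-200c, against 8.59 in control miRNA and 8.74 in transfectant only, with the miR-200c array lowest.

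Pdia6, a disulfide isomerase that acts on the IRE1 and PERK sensors, was at 6.26 under miR-141 and 6.50 under miR-200c, against 5.94 in control miRNA and 6.07 in transfectant only. Its differences with miR-200c, 0.56 and 0.43, came near the rule, but a second probe had 0.25 and -0.11. Creld2, a secreted ER stress protein gene, was at 9.17 under miR-141 and 9.48 under miR-200c, against 9.04 in control miRNA and 9.20 in transfectant only, with miR-200c highest. Sdf2l1, a BiP cofactor gene, was at 5.91 and 5.98 with these miRNAs, against 5.64 in control miRNA and 5.69 in transfectant only. The lectin chaperone gene Canx was at 7.60 and 7.77, against 7.55 in control miRNA and 7.51 in transfectant only. For Sdf2l1 and Canx both miRNA arrays were above both controls, by at most 0.34. Hyou1 was at 6.44 under miR-141 and 6.54 under miR-200c, against 6.71 in control miRNA and 6.16 in transfectant only, so both miRNA arrays lay between the controls.

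ERAD returns misfolded proteins to the cytosol for the proteasome. Of its 4 genes, 3 were detected and 0 called, and Edem1, which marks glycoproteins for removal, was below detection. Herpud1, a membrane scaffold, was at 6.31 under miR-141 and 6.32 under miR-200c, against 6.65 in control miRNA and 6.50 in transfectant only. Both miRNA arrays were below both controls, by 0.19 to 0.34. The ubiquitin ligase gene Syvn1 was at 9.18 and 9.19 with these miRNAs, against 9.45 in control miRNA and 9.0 in transfectant only, with both between the controls. Sel1l, the partner of SYVN1, was at 8.10 and 8.01, against 7.80 in control miRNA and 7.94 in transfectant only, with both above. The median of these 3 genes was -0.28 with miR-141 and -0.26 with miR-200c against control miRNA, but 0.16 and 0.07 against transfectant only, so it has no direction.

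**Figure D3:**
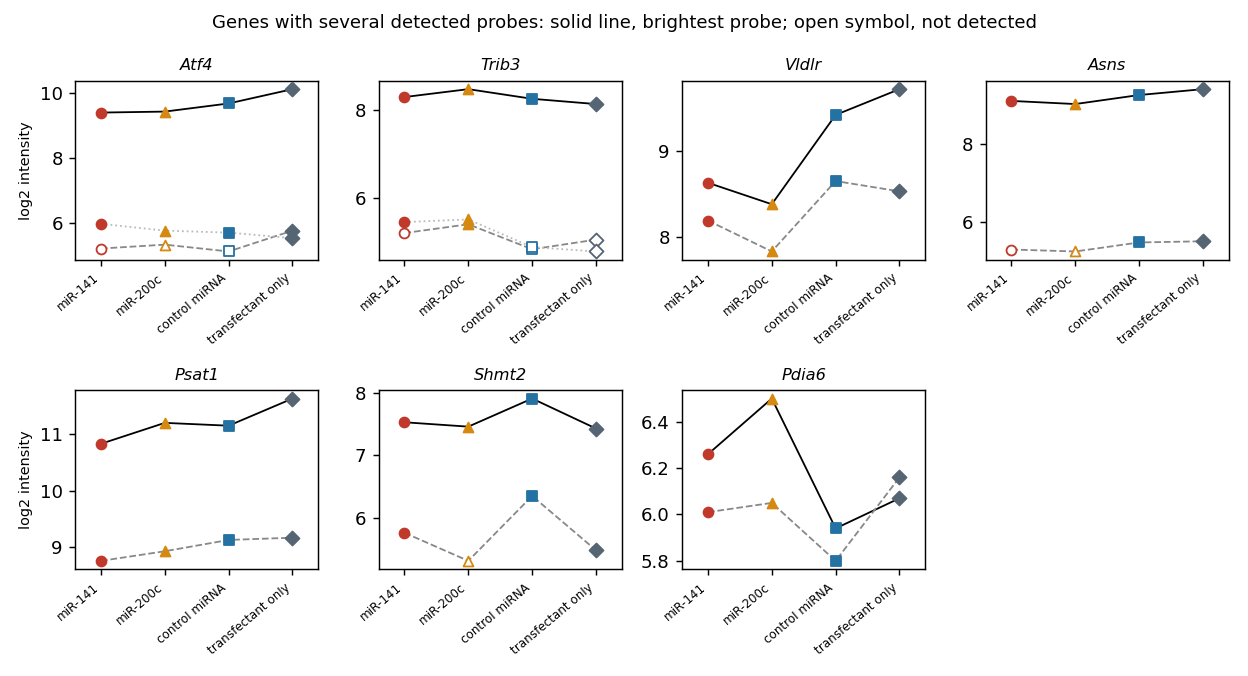
Normalized log2 signal in the 4 arrays for the 7 genes with more than 1 detected probe, with the brightest probe as a solid line and open symbols where a probe was below detection. The Vldlr probes share an order of miRNA arrays below controls, while the Atf4 and Pdia6 probes differ in course.

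Considering only the order of the arrays, both miRNA arrays were below both controls for 10 of the 27 genes detected in all 4 arrays (37.0%), against 20.9% of all such genes. These were Xbp1, Atf4, Atf5, Chac1, Vldlr, Asns, Hsp90b1, Herpud1, Mthfd2 and Cebpb. Both were above both controls for 6 (22.2%), against 23.5% of all, namely Ppp1r15a, Trib3, Canx, Pdia6, Sel1l and Sdf2l1. The miR-141 array was the highest of the 4 for 2 genes (7.41%) and the lowest for 9 (33.3%), against 24.4% and 20.3% of all genes. These shares describe 4 arrays and genes chosen with earlier results of these data known, and carry no test.

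The miRNAs were next set against each other. Of 27 genes, 0 were 1.5-fold higher and 2 were 1.5-fold lower in the miR-141 array than in the miR-200c array (7.41%), where 8.55% of 7283 genes passed in either direction, 4.01% higher and 4.54% lower. The lower ones were Ppp1r15a at -0.82 and Nupr1 at -0.62. For Nupr1 the controls differed by 0.48, so its size is not far beyond the difference between the controls. The call for Nupr1 was lost with the authors' processed values and with both kinds of median scaling, which puts the count at 1. Relative to the shift of all genes, which was 0.02 and 0.03 under the median scalings, Nupr1 passed again there. With the authors' processed values, where the shift was 0.04, it did not pass again. With those values Nupr1 instead passed between the controls, higher in control miRNA. Its difference between the miRNAs thus lies at the edge of the rule. Xbp1, Atf4, Chac1, Herpud1 and Syvn1 differed by 0.04 or less between the miRNA arrays. With 1 array each, this does not show that the miRNAs act alike on them.

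Further genes of the same pathways were taken from 8 lists, 124 genes in all, of which 90 were detected. With miR-141, 0 of 89 considered were higher and 3 lower (3.37%), a smaller share than the 5.25% of all genes called. With miR-200c, 3 of 90 were higher and 2 lower (5.56%), also below the 8.18% of all genes. The medians over the 90 were -0.04 with miR-141 and -0.00 with miR-200c against control miRNA. Among 17 detected further ATF4 targets the medians relative to control miRNA were -0.21 for miR-141 and -0.17 for miR-200c. Relative to transfectant only they were -0.17 and -0.18. Of these genes 1 was lower with miR-141 and 1 higher with miR-200c. The lower one was the glycine transporter gene Slc6a9, at 7.58 under miR-141 and 8.55 under miR-200c, against 8.92 in control miRNA and 8.33 in transfectant only, where the controls themselves differed by 0.59. The higher one was Atf3, a stress-induced factor gene, at 6.50 under miR-141 and 7.35 under miR-200c, against 6.37 in control miRNA and 6.39 in transfectant only. Atf3 thus had the same order of arrays as Ppp1r15a. Of 15 detected aminoacyl-tRNA synthetases, which load amino acids on tRNA and are also ATF4 targets, 0 were called with either miRNA, with medians of 0.05 and 0.05 against control miRNA.

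Of 13 detected genes for eIF2 kinases, eIF2 factors and ATF6 processing, Creb3l1 was lower with both miRNAs. It encodes a membrane-bound relative of ATF6 that serves collagen secretion. Its signal was below detection with miR-141 (4.72) and miR-200c (4.59), against 6.12 in control miRNA and 5.62 in transfectant only. With undetected values at the lowest detected signal of the array, it was at least 1.20-fold lower with miR-141 and at least 1.19-fold lower with miR-200c. Of 11 further ER folding genes, Txndc5, a thioredoxin-type oxidoreductase gene, was lower with miR-200c, at 10.35 under miR-141 and 10.06 under miR-200c, against 10.83 in control miRNA and 10.75 in transfectant only. Of 9 further ERAD genes, Edem2 was higher with miR-200c, at 10.23 and 10.35 with these miRNAs, against 9.67 in control miRNA and 9.53 in transfectant only.

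Of 14 translocon and N-glycosylation genes, Stt3a, a catalytic subunit gene of oligosaccharyltransferase, was lower with miR-141, at 6.48 under miR-141 and 6.96 under miR-200c, against 7.24 in control miRNA and 7.39 in transfectant only. Sec62, a translocon gene, was at least 1.39-fold higher with miR-200c and was below detection in both controls. Of 4 cytosolic heat shock genes and 7 mitochondrial chaperone and protease genes that were detected, 0 were called with either miRNA.

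**Figure D4:**
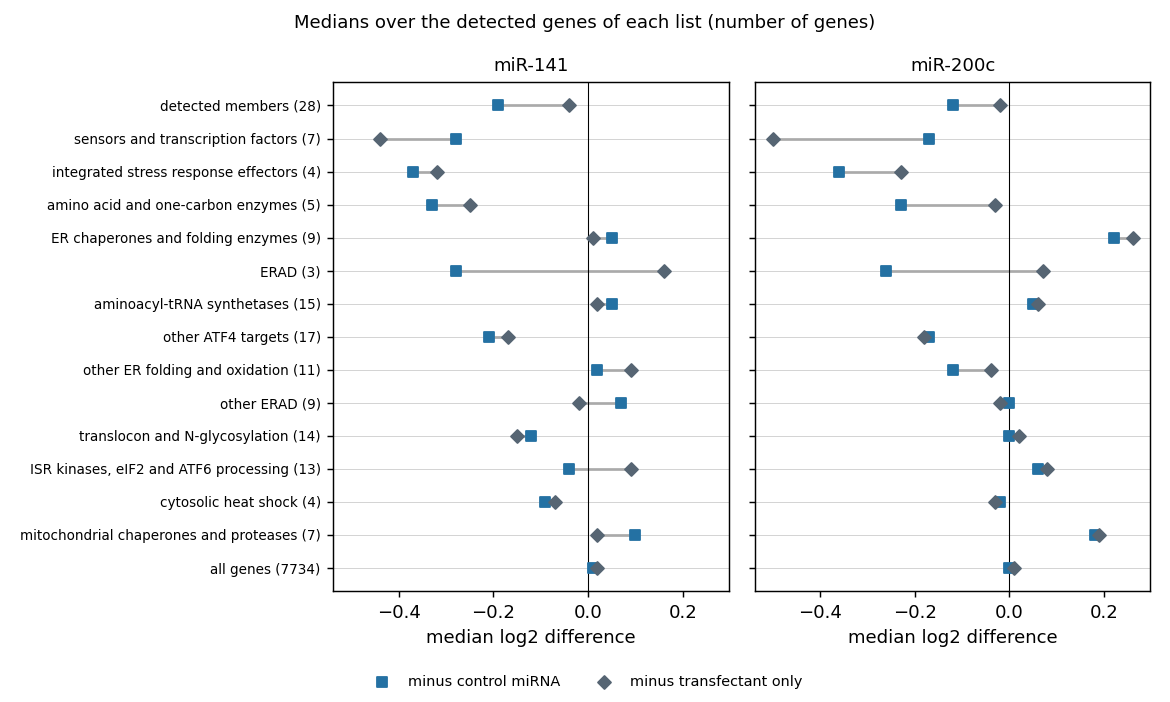
Median log2 difference from control miRNA (squares) and from transfectant only (diamonds) over the detected genes of each role group and further list, with the number of genes in brackets and all 7734 detected genes at the bottom. The medians of transcription factors, effectors and amino acid enzymes lie left of zero in both panels. For the enzymes it is only -0.03 with miR-200c against transfectant only. The 4 effectors have no shared direction, with Chac1 and Vldlr below both controls and Ppp1r15a and Trib3 above both, with each miRNA. ER chaperones lie right of zero with miR-200c, at 0.22 against control miRNA (0.13 without Hspa5) and 0.26 against transfectant only. With scaling to the median of all probes, every role median against control miRNA lies above zero. Under that scaling the median of all detected genes is itself 0.38 with miR-141 and 0.37 with miR-200c. Only the chaperone medians lie above it.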

How the data were processed

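The study measured total RNA of 4 fibroblast cultures, 1 per group, on Illumina bead arrays. The deposited table gave an average bead signal intensity per probe on a linear scale, without scaling between arrays, and a detection p-value, per the file headers. The submitters' processing notes name GenomeStudio without settings. In another table the authors deposited processed intensity values, each column a straight line of its raw signals to within 0.0113 units (slopes of 0.692 to 1.51).

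Background was removed from the deposited raw signals with neqc (limma 3.58.1, R 4.3.3), which fits normexp through the detection p-values, adds an offset of 16, equalizes quantiles and takes log2. Counts, medians and plots were made in Python 3.11.15 (numpy 2.4.6, pandas 2.3.3, matplotlib 3.10.9). Quantile normalization removes any shift shared by most genes, and the offset shrinks differences of dim probes. Of 46632 probes, 29976 had 1 gene symbol in the platform annotation, 10 several and 16646 none, and 29921 were matched to RefSeq (GRCm38.p6) with 0 renamed. No value column lacked a library. The calling rule and normalization were tested on simulated data. There, bright probes were changed by more than the member genes called here, with less noise than between the controls. The test does not give the accuracy of these calls. The number of arrays limits the precision, and no bead-level errors were used.

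The member genes and the lists were chosen with earlier results of these data known. All 40 member genes are named. From each further list the called genes are named, at most 4 for a miRNA by the size of the smaller difference, with Zeb1 and Zeb2 as checks. Alternatives changed the background correction, scaling, offset, filter, probe choice, fold size, control and the treatment of undetected values.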

Additional observations from a re-analysis of the deposited data

Results flagged for a closer look

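The Nupr1 log2 difference between the miR-141 and miR-200c arrays was -0.62, with miR-141 below both controls (-0.52 and -0.04) and miR-200c above both (0.10 and 0.58). The opposite directions drew attention, and the difference was not tested.

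Probes other than the brightest were outside the main measurement. A second Vldlr probe had log2 differences of -0.82 and -0.70 from the controls with miR-200c, the direction of the brightest probe. A dim Trib3 probe was detected with miR-141 (5.44) and miR-200c (5.50) and below detection in control miRNA (4.87) and transfectant only (4.77). Its smaller log2 difference with miR-200c was 0.63, which is at least 1.12-fold with undetected values at their bound, while the brightest Trib3 probe had 0.22 and 0.34.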

How the results depend on the processing

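Of the 148 alternative values of the counts and medians, 122 stayed within 1.5 times the count, or within 1 standard deviation of the control difference for a median, and 26 did not. Scaling to the median of all probes, a value set by background, shifted all detected genes by medians of 0.38 and -0.35 for miR-141 and 0.37 and -0.36 for miR-200c against control miRNA and transfectant only, and by -0.76 between the controls. Without allowing for this, 0 member genes passed with miR-141 (2.49% of all genes), 0 with miR-200c (4.11%), 1 between the miRNAs (8.47%) and 21 of 28 between the controls (71.1%), all 21 lower in control miRNA. Relative to the shift 3 were lower with miR-141 (Chac1, Vldlr, Xbp1; 5.04% of all genes), and 1 was higher and 3 lower with miR-200c (7.96%). On the same basis 2 were lower between the miRNAs (Nupr1, Ppp1r15a; 8.51%) and 1 lower between the controls (Hsp90b1; 11.0%). The medians under this scaling were not taken relative to the shift. Against control miRNA, for miR-141 and miR-200c, they were 0.21 and 0.33 over all detected members, 0.19 and 0.26 for transcription factors, 0.07 and 0.10 for effectors, 0.08 and 0.23 for enzymes, 0.47 and 0.51 for chaperones, and 0.20 and 0.20 for ERAD. With the median of probes detected on all 4 arrays, chosen after seeing the data, 4 and 4 genes passed with miR-141 (5.14% of all genes) and miR-200c (7.82%), 1 between the miRNAs (8.54%) and 1 (Hyou1) between the controls (11.4%). At 2-fold, 0 passed with miR-141 (1.37% of all genes), 2 with miR-200c (Ppp1r15a and Vldlr; 2.55%) and 0 between the miRNAs (1.87%). Against control miRNA alone, 4 passed with miR-141 (9.17% of all genes) and 4 with miR-200c (13.7%). Against transfectant only alone, 8 passed with miR-141, where the share of all genes was also larger, at 13.8%. With miR-200c 6 passed (16.5% of all genes), and the ERAD medians against transfectant only were 0.16 and 0.07. With the authors' processed values 1 passed between the miRNAs (5.07% of all genes) and 1 (Nupr1) between the controls (3.14%), and with the mean over probes 1 (Shmt2) did (7.13%). Single genes were followed only where the main rule had called them. These kept their direction under every alternative, with 17 of 72 values short of the rule. No paired analysis was possible because each group has 1 array. The cause of these changes was not tested.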

Other observations

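Between the controls, 5 of 88 genes of the further lists passed 1.5-fold (5.68%, against 7.7% of all genes), named after their values were seen. Above transfectant only in control miRNA were Slc6a9 at 0.59 and the cationic amino acid transporter gene Slc7a1, at least 1.36-fold. Below it were the ERAD genes Faf2 at -0.62 and Ube2j1 at -0.65 and the amino acid transporter chain gene Slc3a2, at least 1.16-fold. Between the miRNAs, 3 of 87 genes of the further lists passed 1.5-fold (3.45%, against 8.55% of all genes). Slc6a9 at -0.97 and Atf3 at -0.85 were lower in the miR-141 array than in the miR-200c array. Trap1, a mitochondrial HSP90, was higher in the miR-141 array by 0.60, at 10.03 under miR-141 and 9.43 under miR-200c. Its level was 9.93 in control miRNA and 9.59 in transfectant only.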
